A study of Caenorhabditis elegans with 9 samples.

Results

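The 6 vitellogenin genes of Caenorhabditis elegans, vit-1 to vit-6, encode the yolk proteins. They were taken by their names from the deposited tables, where each name occurred once per table, and are 6 of 46904 genes listed. They were chosen by their FPKM and read values over these same libraries, known from earlier work on the tables, so those values are given as a description. Counts of genes past a threshold are given beside the same count over all genes.

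Yolk proteins are large lipid-carrying proteins that the adult hermaphrodite intestine makes in great amounts and secretes into the body cavity. Growing oocytes take them up through RME-2, a receptor of the low-density lipoprotein receptor family, and the embryo and young larva use them as food. The genes vit-1 and vit-2 encode one class of large yolk protein, and vit-3, vit-4 and vit-5 encode another, with copies so alike that short reads are hard to assign among them. The more divergent vit-6 encodes a precursor that is cut into a pair of smaller yolk proteins. Dauer larvae, the arrested stage that forms in place of the third larval stage, have no oocytes, and vitellogenins are known as genes of the adult.

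In WBcel235, 5 of the genes lie on chromosome X and 1 lies on chromosome IV. Per the deposited tables, vit-5 (WBGene00006929) spans chrX:3403471-3408603, vit-4 (WBGene00006928) spans chrX:3558839-3563974 and vit-3 (WBGene00006927) spans chrX:3567355-3572549. The last pair are neighbours with 3380 bases between them. Farther along the chromosome are vit-2 (WBGene00006926), at chrX:5101032-5106173, and vit-1 (WBGene00006925), at chrX:7727889-7733168. The vit-6 gene (WBGene00006930) spans chrIV:8261134-8266462. All 6 are annotated as protein-coding, and their spans of 5133 to 5329 bases are so close that read counts of different members can be set side by side almost as if scaled by length.

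The 9 libraries hold RNA recovered with anti-GFP antibodies from formaldehyde-fixed dauers. Animals were grown at 25 °C and collected after 96 hours, on day 2 of dauer. All of them carried a daf-2 mutation, which lowers insulin/IGF signalling and drives dauer entry. The group called aak(0) also carried mutations in aak-1 and aak-2, which encode catalytic subunits of AMP-activated protein kinase (AMPK), while the group called daf-2 kept them. HZL-1 libraries came from hzl-1 mutants that carried hzl-1::GFP under the intestinal promoter nhx-2p (3 libraries of each genotype) or under hzl-1p, its endogenous promoter (1 library of each genotype). One further library, labelled daf-2; aak(0) with no hzl-1 mutation named, carried nhx-2p::GFP alone as the control. Each transgene was an extrachromosomal array, of the kind that some animals and cells lose. Whether the libraries of a group were grown separately is not stated. The spread behind each p-value is that between these libraries, and it may be technical. No input RNA was analysed here, and a level combines how much of a transcript the animals held with how well it was recovered. Fewer cells of a type and less RNA per cell cannot be told apart.

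Libraries differed widely in how many genes they detected, and this touches every value below. Reads assigned to genes totalled 7151604 to 17397251 in the 6 intestinal HZL-1 libraries, of which ribosomal RNA took 76.3% to 89.8%. Protein-coding genes with at least 1 read numbered 3936, 13611 and 17306 in aak(0) replicates 1, 2 and 3, and 5660, 10615 and 6246 in daf-2 replicates 1, 2 and 3. Where few genes were detected, each held more reads: the median detected protein-coding gene had 186 reads in the first library of aak(0), 174.5 in that of daf-2 and 148 in the third of daf-2, against 31 to 54 in the other 3 libraries. The bait gene hzl-1 and the targeted AMPK genes gave a mixed check of the labels. In FPKM (fragments per unit of transcript length and of sequencing depth), aak-2 was listed at 0, 2.11 and 3.36 in aak(0), at 6.13, 5.31 and 7.9 in daf-2. It was at 8.32 in the GFP control, which is labelled aak(0). The bait transcript hzl-1 was at 6.25, 18.7 and 17.5 FPKM in the aak(0) group and at 2.01, 11.4 and 10.4 FPKM in the daf-2 group. In daf-2 replicate 1 it was thus below its 3.04 FPKM in the control without tagged HZL-1. In the endogenous set aak-2 had 92248 reads in the library labelled aak(0) against 3937 in the one labelled daf-2. The daf-2 library of that set held 0 reads of hzl-1, its own tagged gene, and the aak(0) library held 11527. The arginine kinase gene argk-1, in contrast, ran the same way in both sets, at 3601, 905 and 2558 FPKM in aak(0) against 0.04, 0 and 0 FPKM in daf-2, and at 8965110 reads in the endogenous aak(0) library against 2. It was at 1 FPKM in the GFP control. Reads over a whole gene can come from exons outside a deletion. The endogenous libraries are called below by what they are labelled.

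Most yolk transcripts in the intestinal set lay in the replicate 1 library of each genotype. Summed over the 6 genes, the level was 392 FPKM in daf-2 replicate 1 and 81.1 FPKM in aak(0) replicate 1. In the other 4 HZL-1 libraries it was between 0.59 and 4.08 FPKM, and the GFP control held 9.2 FPKM. Thus both genotypes contained a library rich in yolk transcripts and libraries with next to none, and the control lay between them.

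Values below follow the order of replicates 1, 2 and 3 within each genotype. Of the vit-1 and vit-2 class, vit-2 was listed at 51.3, 0.18 and 0.24 FPKM in the aak(0) group, and at 73.4, 0.18 and 0.27 FPKM in daf-2. With GFP it reached 2.48 FPKM. The high library of each genotype stood far above the remaining ones, which were alike, and the genotypes overlapped. In rank, vit-2 was number 48 among protein-coding genes in daf-2 replicate 1 and number 256 in aak(0) replicate 1, but number 11747 and 12892 in aak(0) replicates 2 and 3. Its relative vit-1 behaved differently: it was listed at 0, 0.09 and 0.1 FPKM in the aak(0) group, at 2.76, 0 and 2.32 FPKM in daf-2, with 0.52 FPKM in the GFP control. The highest vit-1 values were in daf-2 replicates 1 and 3, and the 0 in aak(0) replicate 1 stands beside 34 recovered reads.

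Of the vit-3, vit-4 and vit-5 class, vit-5 was listed at 8.39, 0 and 0.34 FPKM in the aak(0) group, at 108, 0.09 and 0.37 FPKM in daf-2, with 2.3 FPKM in the GFP control. The vit-3 gene was at 0, 0.12 and 0.22 FPKM in aak(0), at 59.96, 0 and 1.12 FPKM in daf-2, with 0.39 FPKM in the GFP control. The vit-4 gene was at 0, 0.34 and 0.16 FPKM in aak(0), at 25.5, 0 and 0 FPKM in daf-2, with 0.43 FPKM in the GFP control. All 3 genes were high in daf-2 replicate 1, while in aak(0) replicate 1 only vit-5 was above 0. For each of them the daf-2 group held both the highest value and one of the lowest.

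The precursor gene vit-6 was at 21.4, 1.37 and 0.46 FPKM in aak(0), at 123, 0.32 and 0 FPKM in daf-2, with 3.08 FPKM in the GFP control. In daf-2 replicate 1 it ranked number 14 of all protein-coding genes and vit-5 number 18. The genotypes again overlapped, since daf-2 held both the highest and the lowest library.

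**Figure D1:**
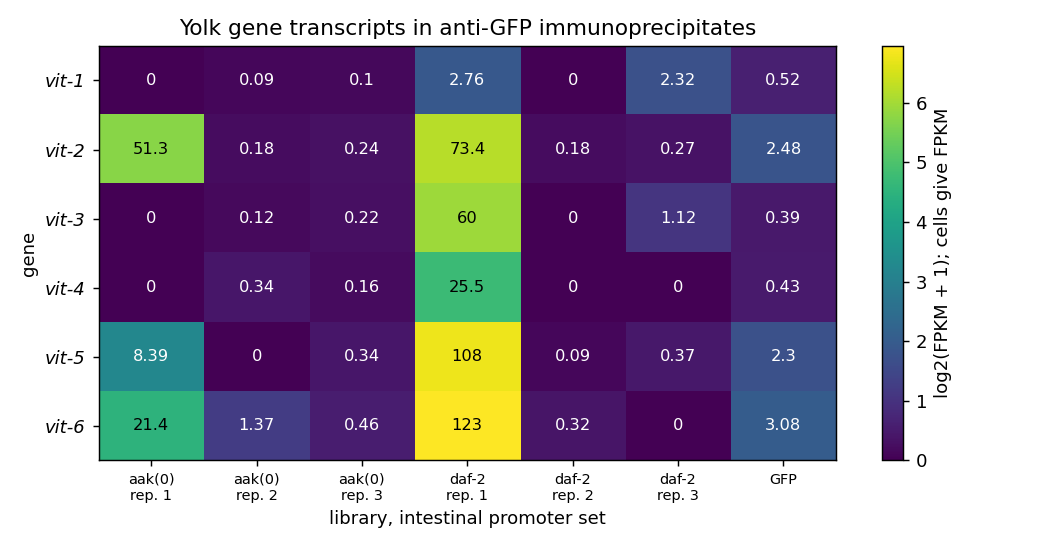
Level of each yolk gene (rows) in each of the 7 libraries of the intestinal promoter set (columns), coloured by log2(FPKM + 1), with the FPKM written in each cell. The daf-2 replicate 1 column is bright for 5 genes, with 25.5 to 123 FPKM, aak(0) replicate 1 for vit-2, vit-6 and vit-5, and no other cell exceeds 3.08 FPKM.

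By FPKM, which is scaled by length, the order of the genes differed between libraries. In daf-2 replicate 1 it ran vit-6, vit-5, vit-2, vit-3, vit-4 and vit-1, and with GFP it ran vit-6, vit-2, vit-5, vit-1, vit-4 and vit-3. In aak(0) replicate 1 vit-2 led with 63.2% of the summed yolk FPKM, and vit-6 followed with 26.4%. The levels with GFP of vit-6, vit-2 and vit-5 lay between 2.3 and 3.08 FPKM. With 1 GFP library there is no spread against which to order them.

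Whole reads, recovered from the deposited normalized table, showed which gene each library had sampled. Yolk reads numbered 3780, 130 and 172 in aak(0) replicates 1, 2 and 3, and 27993, 38 and 336 in daf-2. In CPM (reads per 1000000 gene reads) this was 529, 8.19 and 10.3 in aak(0), and 2166, 2.18 and 28.7 in daf-2. The exact 95% intervals were 512 to 546 CPM in aak(0) replicate 1 and 2141 to 2191 CPM in daf-2 replicate 1, and they reflect counting alone, as PCR copies were not marked by molecular identifiers. Within each genotype the first library held the most yolk reads and no other library came near it.

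The make-up of those reads differed as well. In aak(0) replicate 1, 60.8% of yolk reads were from vit-2, 27.9% from vit-6 and 10.5% from vit-5, and 0 were from vit-3 or vit-4. In daf-2 replicate 1 the shares were 39.3% for vit-6, 26.7% for vit-2, 25.7% for vit-5, 5.03% for vit-3 and 2.29% for vit-4. In daf-2 replicate 3, 306 of 336 yolk reads (91.1%) were from vit-1 and the remaining 30 from vit-2. All 6 genes had reads in aak(0) replicates 2 and 3, which together held far fewer yolk reads than either replicate 1 library, and only 4 genes had reads in aak(0) replicate 1. The library with the fewest yolk reads, daf-2 replicate 2, held 22 of vit-2, 11 of vit-5 and 5 of vit-6.

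**Figure D2:**
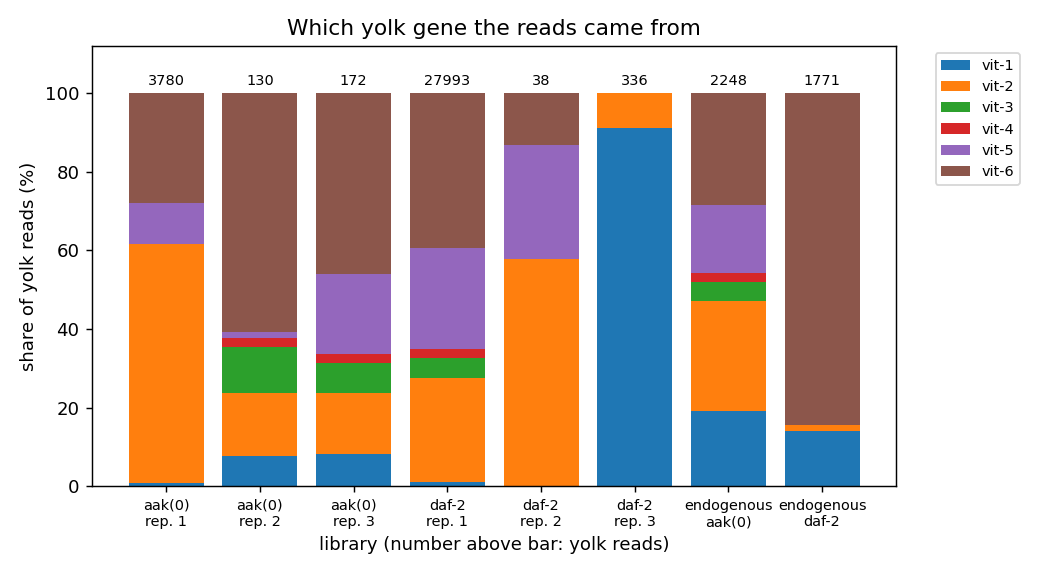
Share of all yolk reads (vertical axis, %) that came from each of the 6 genes in the 8 libraries with known reads, with the number of yolk reads above each bar. The vit-2 gene fills most of aak(0) replicate 1, vit-1 most of daf-2 replicate 3 (91.1%) and vit-6 most of the endogenous daf-2 library (84.3%).

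The deposited FPKM and reads did not divide the similar copies in the same way. In daf-2 replicate 1 there were 9.83 FPKM per 1000 reads for vit-2, 9.93 for vit-1 and 11.2 for vit-6. The figure was 15 for vit-5, 39.8 for vit-4 and 42.6 for vit-3, although all 6 genes are of nearly 1 length. In daf-2 replicate 3, vit-3 and vit-5 were listed at 1.12 and 0.37 FPKM with 0 recovered reads each. The split among vit-3, vit-4 and vit-5 is therefore uncertain, while in aak(0) replicate 1 the 3 genes above 0 FPKM were alike, at 22.3 for vit-2, 21.2 for vit-5 and 20.4 for vit-6.

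The main comparison of the study set aak(0) against daf-2 for HZL-1 under the intestinal promoter, that is, without and with AMPK. Libraries of aak(0) and daf-2 overlapped for all 6 yolk genes. Of the 9649 genes that averaged 1 FPKM or more, 10.8% did not overlap, a share at which 0 of so few genes is no result about them. Among these 9649 genes were 5 yolk genes, since vit-1 fell short of the minimum mean. The log2 differences of aak(0) minus daf-2 on the log2(FPKM + 1) scale were -0.18 ± 2.20 (SE) for vit-2, -0.36 ± 2.10 for vit-6, -1.23 ± 1.99 for vit-5, -1.36 ± 1.3 for vit-4 and -2.19 ± 1.53 for vit-3. Their median was -1.23, beside 0.59 over all genes tested, and -1.56 beside -0.02 after quantile normalization. For vit-2, vit-5 and vit-6 the standard error exceeded the difference itself.

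In the limma fit across all genes, 0 of the 5 yolk genes were called at an adjusted p under 0.05, with adjusted p from 0.717 to 0.993, and 0 had an unadjusted p under 0.05. Of all 9649 genes, 0.0104% were called (1 gene), and 4.35% had an unadjusted p under 0.05. The quasi-likelihood test of edgeR on recovered reads called 0 of the 5 yolk genes that passed its own filter (all but vit-4), of which only vit-3 had an unadjusted p under 0.05. It called 0.0214% of 9328 genes, and 0.654% had an unadjusted p under 0.05. DESeq2 on the same reads called 0 yolk genes and 0.0218% of 22887 genes, and it gave vit-1 alone a p-value. The other 5 were left without one.

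The direction of the genotype difference hung on single libraries for each yolk gene tested but vit-3, which stayed below 0 in these fits. Without daf-2 replicate 1 the log2 difference became 1.79 for vit-2, 1.89 for vit-6, 0.93 for vit-5 and 0.21 for vit-4, all above 0, and -0.39 for vit-3. In that fit 69.8% of all 9649 genes lay above 0, with a median of 0.60. Without aak(0) replicate 1 the log2 difference became -1.99 for vit-2 and -1.56 for vit-6, beside a median of 0.93 over all genes. Without both replicate 1 libraries, a choice made after the values were seen, it was -0.02 for vit-2, -0.08 for vit-5, -0.32 for vit-3, 0.32 for vit-4 and 0.70 for vit-6. None of these differences was called, the lowest limma adjusted p in the fits without both libraries being 0.13, for vit-4.

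**Figure D3:**
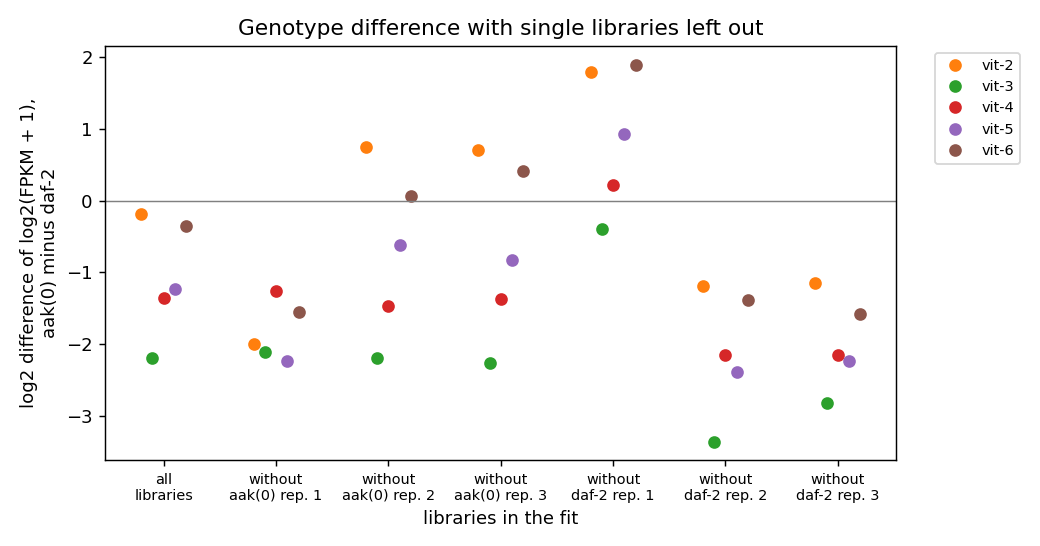
Log2 difference of aak(0) minus daf-2 on the log2(FPKM + 1) scale (vertical axis) for the 5 yolk genes tested, with all libraries and with each HZL-1 library left out in turn (horizontal axis). With all libraries the points lie between -2.19 and -0.18, and without daf-2 replicate 1 they lie between -0.39 and 1.89, with 4 of the 5 above 0. In that last fit 69.8% of all genes tested lay above 0.

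The GFP control asks what is recovered by the antibody and beads without HZL-1. Its 6 yolk genes lay between 0.39 and 3.08 FPKM, each above that gene's values in daf-2 replicate 2 and in replicates 2 and 3 of aak(0), and its vit-2, vit-5 and vit-6 were below those of the replicate 1 libraries. In the limma contrast of aak(0) with GFP 0 of 5 yolk genes were called, beside 1.07% of all genes. At an unadjusted p under 0.05 there were 0, beside 1.94% of all genes. In the contrast of daf-2 with GFP both counts were again 0, beside 1.07% and 7.54% of all genes. Both contrasts share the single GFP library and assume that it varies like the replicated groups, and the contrast with daf-2 also holds a difference of genotype if the label of the control is right. The log2 differences from GFP were between -0.50 and 0.29 in aak(0) and between 0.42 and 1.86 in daf-2, against medians over all genes of -0.79 and -1.28. Their sign depended on the setting, as did that of the medians over all genes. With a pseudocount of 0.1 FPKM the median over the yolk genes was -1.23 in aak(0) and -0.17 in daf-2. Over all genes it was -1.72 and -2.23. After quantile normalization the yolk medians were 0.37 and 2.10, beside 0.02 and 0.09 over all genes. In both settings the yolk medians lay above those over all genes, as in the main fit. Without the replicate 1 libraries the median over the yolk genes moved from -0.30 to -1.13 in aak(0) and from 0.73 to -1.43 in daf-2. The medians over all genes in those fits were -0.36 and -1.28. With or without the replicate 1 libraries limma called 0 yolk genes. Without them, however, 2 of 5 in aak(0) and 4 of 5 in daf-2 had an unadjusted p under 0.05, all below the control. Over all genes the shares at such a p were 5.14% and 34.3%. For vit-2 the difference was -1.52 ± 0.13 (SE, limma adjusted p = 0.0518) in aak(0) and -1.51 ± 0.13 (limma adjusted p = 0.0503) in daf-2. The replicate 1 libraries were left out after their high yolk values were seen. That choice by itself lowers the level and the spread of the yolk genes, so nothing is drawn from these p-values.

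The endogenous pair has 1 library per genotype and so no replicate check. Its gene reads totalled 24035823 in the library labelled aak(0), of which 37.3% came from argk-1, and 58132094 in the library labelled daf-2. Ribosomal RNA took 30.0% and 70.4%. In the aak(0) library all 6 yolk genes had reads, namely 429 of vit-1, 629 of vit-2, 108 of vit-3, 56 of vit-4, 389 of vit-5 and 637 of vit-6. In the daf-2 library vit-1 had 248 reads, vit-2 had 30, vit-6 had 1493, and the copies vit-3, vit-4 and vit-5 had 0 each. These counts leave out reads that map to several places, which the deposited table lists apart from the genes.

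On the CPM scale vit-6 was equal in the pair, at 26.5 in aak(0) and 25.7 in daf-2, a ratio of 1.03 (exact 95% binomial interval 0.939 to 1.13, counting error only). The other genes were higher in the aak(0) library. For vit-2 it was 26.2 against 0.516 CPM, a ratio of 50.7 (35.2 to 75.8), and for vit-1 17.8 against 4.27 CPM, a ratio of 4.18 (3.57 to 4.91). With 0 reads replaced by a floor of 3 reads in the daf-2 library, vit-5 was at least 314-fold higher, vit-3 at least 87.1-fold and vit-4 at least 45.1-fold on this scale, and at least 133-fold, 36.9-fold and 19.1-fold when scaled to gene reads other than ribosomal RNA. Such ratios were common, however: 5 of 6 yolk genes were at least 2-fold higher on the CPM + 1 scale, as were 59.2% of 18987 genes that averaged 1 CPM or more, and 44.7% of those genes had 0 reads in the daf-2 library.

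Scaling moved these values. With reads scaled to gene reads other than ribosomal RNA, vit-6 was at 37.8 in the aak(0) library against 86.6 CPM in the daf-2 library (ratio 0.437, interval 0.398 to 0.480), the vit-2 ratio was 21.5 (14.9 to 32.1), the vit-1 ratio was 1.77 and the summed ratio of the 6 genes was 1.3 in place of 3.07. On that scale 4 of 6 yolk genes were at least 2-fold higher, beside 51.6% of all genes. In both scalings vit-1, vit-2, vit-3, vit-4 and vit-5 were higher in the library labelled aak(0). In the intestinal set each of these genes, and vit-6 too, had its highest level in a daf-2 library. The tables were normalized separately, so levels of the 2 sets are not compared in size.

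The authors' deposited table of daf-2 over aak(0) gives a log2 fold change and a standard error per gene, and a further column called unshrunken. For vit-3 the authors' deposited table lists a log2 fold change of 12.58 ± 4.55 and for vit-4 one of 11.44 ± 4.58, each with an adjusted p of 0.334. In the authors' deposited table vit-5 stands at 3.86 ± 3.95, vit-6 at 3.06 ± 3.69, vit-1 at 2.71 ± 4.07 and vit-2 at 1.38 ± 3.24, and all 4 share an adjusted p of 0.970. Its unshrunken values were far smaller for vit-3 (1.02) and vit-4 (1.84), and of the opposite sign for vit-6 (-2.20).

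These fold changes were those of the replicate 1 libraries. The log2 ratio of the deposited values of daf-2 replicate 1 over aak(0) replicate 1 was 3.86 for vit-5, 3.06 for vit-6, 2.71 for vit-1 and 1.38 for vit-2, as in the authors' deposited table. The same match within 0.01 held for all 2600 genes with reads in both replicate 1 libraries. For vit-3 and vit-4, which had 0 reads in aak(0) replicate 1, no ratio can be formed. The authors' deposited table calls 0 of 24419 genes at an adjusted p under 0.05.

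**Figure D4:**
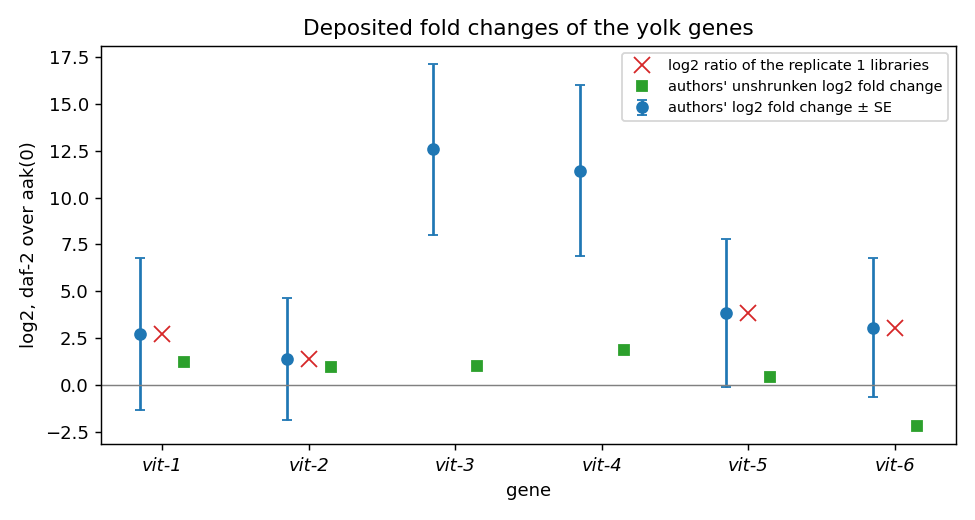
Log2 fold change of daf-2 over aak(0) for each yolk gene in the authors' deposited table (circles, with the standard error as bars), its unshrunken column (squares), and the log2 ratio of the replicate 1 libraries (crosses, absent for vit-3 and vit-4). Crosses lie level with the circles, and for vit-6 circle and square lie on opposite sides of 0, at 3.06 and -2.20.

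Genes that handle yolk were set beside the yolk genes. Of 11 genes for yolk assembly, receptor and uptake 10 were tested, and limma called 0 of them higher and 0 lower between genotypes, with a median log2 difference of 1.01 beside 0.59 over all genes. The oocyte yolk receptor gene rme-2 was listed at 0, 12.5 and 15.1 FPKM in the aak(0) group, at 14.6, 1.31 and 0.05 FPKM in daf-2, with 20.9 FPKM in the GFP control. Within daf-2 it was highest in the library rich in yolk transcripts, and within aak(0) it was at 0 in that library, where 65.9% of all tested genes were listed at 0. The dsc-4 gene, which encodes a subunit of the microsomal triglyceride transfer protein that loads lipid onto yolk, was at 0.11, 2.04 and 2.31 FPKM in aak(0), at 0, 1.66 and 4.04 FPKM in daf-2, with 3.39 FPKM in the GFP control. It was lowest in both replicate 1 libraries. The most abundant of the list was chc-1, the clathrin heavy chain gene, at 19.9, 23.9 and 26.6 FPKM in aak(0), 13.9, 10.8 and 7.78 FPKM in daf-2, with 36.4 FPKM in the GFP control. Next came rab-5, an early endosome GTPase gene, at 0, 26.0 and 25.2 FPKM in aak(0), 9.03, 8.79 and 27.1 FPKM in daf-2, with 32.1 FPKM in the GFP control. The endocytic recycling gene rme-1 was at 13.4, 23.0 and 20.7 FPKM in aak(0), 17.8, 6.68 and 4.29 FPKM in daf-2, with 32.9 FPKM in the GFP control. The genotypes overlapped for rme-2, dsc-4, rab-5 and rme-1, and for chc-1 every aak(0) library lay above every daf-2 library, beside 10.8% of all genes without overlap.

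Of 17 genes known to regulate yolk gene transcription 10 were tested, and limma called 0 in either direction, with a median of -0.15. The most abundant were daf-16, the FOXO factor gene that acts against vitellogenesis, at 190, 75.7 and 77.6 FPKM in aak(0) and 36.9, 62.2 and 126 FPKM in daf-2, and skn-1, the Nrf factor gene, at 67.2, 38.8 and 39.8 FPKM in aak(0) and 22.6, 20.2 and 34.9 FPKM in daf-2. Their levels with GFP were 141 and 71.8 FPKM. The Rictor gene rict-1 of the TOR complex that promotes yolk synthesis was at 8.54, 10.7 and 10.3 FPKM in aak(0), at 5.78, 3.7 and 2 FPKM in daf-2, with 13.7 FPKM in the GFP control. For skn-1 and rict-1 every aak(0) library lay above every daf-2 library, beside 10.8% of all genes without overlap. The genotypes overlapped for daf-16. Of all 7 libraries, daf-16 was lowest in daf-2 replicate 1 and highest in aak(0) replicate 1, the libraries rich in yolk transcripts.

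Since vitellogenins are adult genes, markers of other stages and tissues were set beside them. Of 22 eggshell and oocyte genes all were tested and limma called 0 in either direction between genotypes. Their summed level ranged from 74.9 to 528 FPKM in aak(0), was 482, 41.5 and 23.7 FPKM in daf-2 replicates 1, 2 and 3, and stood at 866 FPKM for GFP. In daf-2 replicate 1, 19 of the 22 were above 0 FPKM, where 51.0% of all tested genes were listed at 0. Their sum there was the highest within daf-2, but below those of aak(0) replicates 2 and 3 and of GFP. In aak(0) replicate 1, 9 of the 22 were above 0, where 65.9% of all tested genes were listed at 0. The aak(0) replicates 2 and 3 held 22 and 21 of them at 514 and 528 FPKM with next to no yolk transcripts. There 7.62% and 4.43% of all tested genes were listed at 0. The most abundant, cpg-2, a chondroitin proteoglycan gene of the eggshell, was at 8.96, 89.8 and 89.2 FPKM in aak(0), 74.5, 5.82 and 2.25 FPKM in daf-2, with 152 FPKM in the GFP control. The eggshell protein gene cbd-1 was at 11.8, 50.1 and 54.6 FPKM in aak(0), 35.8, 3.3 and 0.09 in daf-2, with 87.1 in the control. The germline RNA-binding protein gene gld-1 was at 0.66, 61.3 and 57.0 FPKM in aak(0), 14.6, 3.92 and 0.05 in daf-2, with 93.4 in the control. In the endogenous set the list summed to 688 CPM in the library labelled aak(0) and 1262 CPM in the one labelled daf-2, with 20 of 22 genes detected in each, beside a summed yolk level of 93.5 and 30.5 CPM. The part of adult or germline RNA in the yolk values was not tested.

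Adult cuticle collagen genes were at or near 0 throughout: col-7 and col-62 were listed at 0 in all 7 libraries, and col-19 at 0 in each library but aak(0) replicates 2 and 3 (0.76 and 0.2 FPKM) and GFP (0.03 FPKM). No gene of the list passed the minimum mean, and 65.9% and 51.0% of tested genes were listed at 0 in the replicate 1 libraries of aak(0) and daf-2, so nothing is read from these zeros. Of the endogenous pair the library labelled aak(0) held 162 reads of col-19. Sperm genes of the msp family, 35 in all, summed to 0 FPKM in aak(0) replicate 1, to 327 and 290 in aak(0) replicates 2 and 3, to 101, 11.9 and 30.7 in daf-2 and to 264 with GFP. Of 7 early embryo genes only pal-1 passed the minimum mean, end-1, end-3 and med-1 were at 0 in all 7 libraries, and the list summed to 0 to 7.42 FPKM in aak(0), to 0 to 9.16 FPKM in daf-2 and to 11.7 FPKM with GFP. In the endogenous pair that list summed to 31.4 CPM in the library labelled aak(0), with reads of 5 genes, and to 0 in the one labelled daf-2. There 44.7% of genes averaging 1 CPM or more in the pair had 0 reads. The msp genes summed to 119 CPM in the endogenous aak(0) library and 147 CPM in the daf-2 one.

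The sum over dauer markers was mostly tts-1 and varied most among the daf-2 libraries. The list of 5 genes summed to between 1414 and 2185 FPKM in aak(0), to 232, 2177 and 6462 FPKM in daf-2 replicates 1, 2 and 3, and to 2201 FPKM with GFP. The low value was that of daf-2 replicate 1, where the dauer collagen genes col-2 and col-40 and the cuticlin gene cut-1 were listed at 0 and the noncoding RNA tts-1 at 181 FPKM, against 1335 to 6399 FPKM in the other libraries. In daf-2 replicate 1, 51.0% of all tested genes were listed at 0, so nothing is read from those zeros. The desiccation protein gene lea-1 was alike in all libraries, at 45.1 to 72.1 FPKM. In aak(0) replicate 1, the other library rich in yolk transcripts, col-2 was at 0, but col-40 was at 20.8, cut-1 at 23.7 and tts-1 at 2093 FPKM. Whether animals of another stage contributed to either library was not tested.

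**Figure D5:**
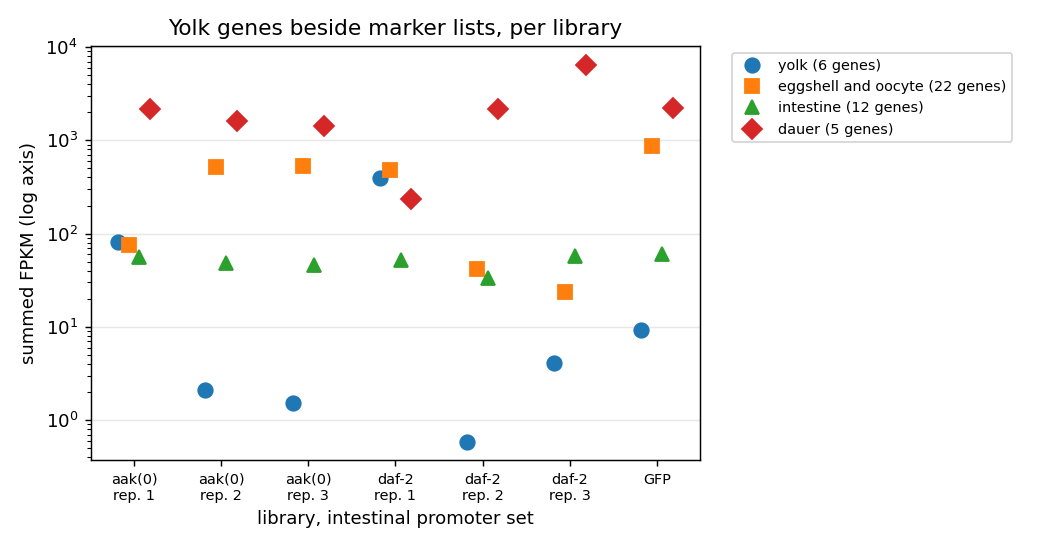
Summed FPKM (logarithmic vertical axis) of the 6 yolk genes and of 3 marker lists in each of the 7 libraries of the intestinal promoter set. Yolk transcripts stand at 392 FPKM in daf-2 replicate 1 and 81.1 in aak(0) replicate 1, while eggshell and oocyte genes are at 482 FPKM or more in daf-2 replicate 1, in aak(0) replicates 2 and 3 and with GFP, and the sum over intestine genes, whose single members vary more, lies between 33.3 and 60.4 FPKM.

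Markers of the intestine, where yolk is made, moved in both directions between libraries. The 12 genes summed to 56.1, 48.6 and 46.6 FPKM in aak(0), to 52.3, 33.3 and 57.9 FPKM in daf-2, and to 60.4 FPKM with GFP. In recovered reads the sum ranged from 89.8 to 258 CPM. Single genes varied more: the cathepsin B-like protease gene cpr-1 was at 15.4, 1.34 and 0.82 FPKM in aak(0), 13.5, 0 and 0 FPKM in daf-2, with 3.03 FPKM in the GFP control. The aspartyl protease gene asp-1 was at 0 to 12.3 FPKM over the 7 libraries. Defining intestine genes were sparse, however, with the GATA factor gene elt-2 at 0 to 0.96 FPKM over the 7 libraries and listed at 0 in both replicate 1 libraries. The most abundant were the intermediate filament genes ifb-2, at 0, 9.53 and 6.41 FPKM in aak(0) and 0, 18.3 and 35.9 FPKM in daf-2, and ifc-2, at 4.47 to 17.8 FPKM in all, and the proton pump gene vha-6, at 3.34 to 15.9 FPKM. Body wall muscle genes (5 genes, 76.6 to 413 FPKM), neuron genes (6 genes, 81.3 to 164 FPKM) and hypodermis genes (4 genes, 2.35 to 19.5 FPKM) were present too. The immunoprecipitates therefore held transcripts of many tissues beside those of the intestine.

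Genes outside the family were ranked by how closely they followed the pattern of the yolk genes. The measure was Pearson's r, over the 7 intestinal libraries, with the mean log2(FPKM + 1) of the 6 genes, given here as a description. Members themselves reached 0.99 for vit-5, 0.96 for vit-6, 0.91 for vit-4, 0.90 for vit-3 and 0.90 for vit-2, but 0.59 for vit-1. Among genes with a symbol other than a sequence name, the most like them was chat-1, which encodes a chaperone of a lipid flippase (r = 0.96). Its level, however, only ranged from 11.9 FPKM to 34.1 FPKM, in daf-2 replicate 1. The chemoreceptor gene srh-137 (r = 0.93), the glucuronosyl transferase gene ugt-38 (0.93) and the nuclear receptor gene nhr-267 (0.93) followed, with 10.1 to 13.3 FPKM in daf-2 replicate 1, and all 3 were listed at 0 in the remaining HZL-1 libraries. Below them 35 genes, sequence names included, were tied at r = 0.92 because they were listed above 0 in daf-2 replicate 1 alone. Among them were nspc-17, phf-32, smy-1, srg-38, srh-193 and srz-38. The tied genes thus had a higher r than vit-1, vit-2, vit-3 and vit-4, which also help to form the mean. The order rests on FPKM with many values of 0: ugt-38 had 0 recovered reads in all 6 libraries. On log2(CPM + 1) of the recovered reads none of these 10 remained, and arrd-3 (r = 0.97), gur-5 (0.97) and srt-53 (0.96) led, followed by 7 genes with reads in all 6 libraries.

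By a rule chosen after the values were seen, genes were also counted that had at least 20 FPKM in both replicate 1 libraries and under 5 FPKM in each of the other 5. Of 9649 genes 2 met it, vit-2 and vit-6. Because the limits were set around the yolk values, this restates those values and does not test how rare they are.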

How the data were processed

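The tools named in the submitters' processing notes are DESeq2 1.30.1, RSEM, STAR 2.7.1a and Trimmomatic 0.35, and the build is WBcel235. Their settings, and whether strand was used, were not given in the sources used here. Overlapping genes cannot be told apart without strand. The authors deposited FPKM for 7 libraries. They deposited a normalized signal for 6 of these, beside log2 fold changes, standard errors (a score) and p-values of their own. For the endogenous pair they deposited raw counts, of which entries naming no gene were 62.1% and 29.6% of all reads and were left out.

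Every deposited signal was a whole multiple of 1 factor per library, within 0.01 (100% of values), so whole reads were recovered. A floor of 3 reads is 0.172 to 0.419 CPM in the intestinal HZL-1 libraries and 0.0516 to 0.125 CPM in the endogenous pair. For GFP no reads were recovered, and its depth is unknown.

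limma 3.58.1 (R 4.3.3) was fitted with a variance trend to log2(FPKM + 1) of 7 libraries, 1 mean per group, for genes averaging 1 FPKM or more, with Benjamini-Hochberg adjustment at 0.05. Fold changes on this scale understate those of low genes. edgeR 4.0.16 and DESeq2 1.42.0 were run on recovered reads. Both limma and edgeR were also tried on simulated counts, limma on log2(CPM + 1) and not on FPKM. Those counts lacked the many zeros of these libraries, so they do not show how well the fits do here. The plan allowed for FPKM in the endogenous set too, which held counts, so ratios of CPM were used. Members and lists were chosen with earlier results of these data known. Named genes were the 6 members, the 10 most correlated with them, and the 3 most abundant of each list with rme-2 and dsc-4. The 10 were taken from genes with a symbol other than a sequence name. Others named were chosen after their values were seen. Over all genes tested, libraries with the same replicate number did not deviate alike from their group means, with correlations of -0.11, -0.05 and -0.10. Zeros weigh on these correlations, and whether libraries of the same number shared a batch was not tested.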

Additional observations from a re-analysis of the deposited data

How the results depend on the processing

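The count of yolk genes called was 0 under 18 alternatives for aak(0) against daf-2 and under 10 for each contrast with GFP. This says little of stability, since DESeq2 gave 5 of 6 yolk genes no p-value and several fits called 0 genes of all tested. Limma adjusted p over those for aak(0) against daf-2 ranged from 0.13 to 1, and edgeR's from 0.648 to 1.00. In edgeR without a filter 4 yolk genes had an unadjusted p under 0.05, beside 0.856% of 24419 genes. With the replicate number as a block all genes called numbered 0, and the log2 difference of vit-2 was -0.18 ± 0.83 (SE). The numbers did not pair the libraries.

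Over fits leaving out 1 HZL-1 library, the log2 difference of aak(0) minus daf-2 ranged from -1.99 to 1.79 for vit-2, from -1.58 to 1.89 for vit-6, from -2.39 to 0.93 for vit-5, from -2.15 to 0.21 for vit-4 and from -3.36 to -0.39 for vit-3. Without both replicate 1 libraries it was 0.32 for vit-4 and 0.70 for vit-6. Without aak(0) replicate 2 it was 0.74 for vit-2 and 0.07 for vit-6, without aak(0) replicate 3 it was 0.71 and 0.42, and with a pseudocount of 0.1 FPKM 0.59 for vit-6. The cause was not tested. All genes called for aak(0) against daf-2 numbered 0 to 545 (without aak(0) replicate 1), beside 1 with all libraries, 27 without both replicate 1 libraries and 10 by edgeR with no filter. They numbered 0 with a pseudocount of 10, no filter or quantile normalization, and 2 with a minimum mean of 5 FPKM or TPM. For both contrasts with GFP they were 0 with a minimum of 5 FPKM or quantile normalization, and 1568 and 1753 with no filter. For aak(0) against GFP, 103 became 158 without aak(0) replicate 3.

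The summed endogenous log2 ratio of 1.59 was 0.37 without ribosomal RNA and 1.36 with median-of-ratios scaling. Scaled to gene reads other than ribosomal RNA, yolk CPM were 2713, 39.5 and 48.6 for aak(0) replicates, 15436, 21.5 and 121 for those of daf-2, and 134 and 103 in the endogenous aak(0) and daf-2 libraries. In parts per 1000000 of the protein-coding FPKM the yolk share was 1081, 24.3 and 17.7 for aak(0) against 8572, 13.7 and 62 for daf-2. Of the 10 genes with a symbol that were most like the yolk genes, 4 were the same with a pseudocount of 0.1 FPKM and 0 with recovered reads. Low values rest on few reads: in aak(0) replicates 2 and 3 and daf-2 replicate 2, a yolk gene with any reads had 2 to 79, although these libraries held the most gene reads of the intestinal set.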
